A study of Mus musculus with 16 samples.

Results

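Lineage-negative (Lin-) c-Kit+ bone marrow cells of IACS-70654-treated mice carrying 2208L mammary tumors were compared with those of tumor-free WT mice by single-cell RNA-seq. Cells were kept with 201 to 5999 genes and at most 10% mt- UMIs (unique molecular identifiers of mitochondrial genes), which left 3875 and 3039 cells in the WT libraries and 7517 and 4317 cells in the IACS-70654 libraries. These 18748 cells were taken from 73176 kept cells of the whole series of 16 samples. All mice were female WT BALB/c, and the treated mice had received a piece of the 2208L tumor, a transplantable Trp53-null mammary tumor of the same strain, into the mammary fat pad as young adults. IACS-70654 was given orally in methylcellulose on a 3-on/2-off schedule for 7 days according to the labels, whereas the WT mice, which the labels call ctrl, had neither tumor nor treatment. The text of the study gives a shorter course for bone marrow of such mice, and which of these applies to the present libraries was not settled. Each library pooled 3 mice, and no source states whether the 2 replicates of a group are separate pools. The p-values and standard errors (SE) thus rest on the spread between libraries, which may be technical. The fits share their estimate of this spread among genes, so both can understate the spread between the replicates of a single gene. Tumor and drug cannot be told apart in this comparison. Values of tumor-bearing mice given vehicle (2 libraries, with 6571 and 2836 kept cells) are given beside it as a description and entered the tests only where a fit with all 6 libraries is named, although classes were drawn from all 6. In each pair of values below, replicate 1 comes first.

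The sorted gate holds the hematopoietic stem and progenitor cells (HSPCs), in which stem cells give rise to multipotent progenitors and these to cells committed to the neutrophil, monocyte, erythroid, megakaryocyte, and basophil or mast cell lineages. CBP and P300 are transcriptional coactivators with an acetyltransferase domain, and their bromodomains bind acetylated lysines. IACS-70654 is a selective inhibitor of these bromodomains.

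Totals ran from 27250512 to 61608026 UMIs per library, median UMIs per kept cell were 8061 and 7810 in WT and 6954 and 6712 with IACS-70654, and 0 cell barcodes were shared between libraries. The replicates differed by more than counting noise, with a chi-square per degree of freedom of 1.84 in WT and 2.13 with IACS-70654. Levels are CPM, the UMIs of a gene summed over cells and scaled to a common library total. Kit, which encodes c-Kit, was at 124 and 126 CPM in WT and 154 and 150 CPM with IACS-70654, and the sorted-out lineage genes Ly6g and Cd3e were at most 0.113 CPM in every library. Summed markers of mature neutrophils were at 4.68 and 5.65 CPM in WT and 6.07 and 7.92 CPM with IACS-70654, with 1 of 8 called higher and Ly6g, Ltf, Retnlg, and Mmp9 under 1 CPM. Those of tumor epithelial cells summed to between 16.1 and 20.0 CPM, and those of macrophages to between 7.30 and 8.07 CPM. B cell markers summed to 2593 and 3010 CPM in WT and 1631 and 1906 CPM with IACS-70654, and their part in the results was not tested.

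Hematopoietic stem cell-like and multipotent progenitor-like cells made up a larger share of the gate with IACS-70654 than in WT. The stem cell-like class, in which Hlf, Mecom, and Meis1 were among the markers, held 7.33% and 8.75% of WT cells and 15.4% and 14.9% of IACS-70654 cells, a 1.90-fold higher share (log2 difference 0.93 ± 0.08 SE, adjusted p = 7.58e-13, edgeR on numbers of cells, 16 classes and clusters tested). The multipotent progenitor-like class, marked by Cd34, Flt3, and Sox4, held 10.9% and 10.2% in WT and 23.5% and 24.6% with IACS-70654, a 2.26-fold higher share (1.18 ± 0.07, adjusted p = 1.08e-16). Together these early cells were 18.2% and 19.0% of WT libraries, 17.4% and 20.6% of vehicle libraries, and 38.9% and 39.5% of IACS-70654 libraries. The higher share of both was also present when classes were carried over from clusters of WT cells alone, at 17.6% and 18.7% against 37.0% and 37.6%. With finer clustering at a Leiden resolution of 1.5, the multipotent progenitor-like share was 7.12% and 7.04% in WT and 17.7% and 18.1% with IACS-70654, but a smaller stem cell-like class of 2.92% and 3.42% in WT and 2.83% and 2.94% with IACS-70654 did not differ (-0.13, adjusted p = 0.328). At a coarser resolution of 0.5 no cluster earned the stem cell-like name, and the multipotent progenitor-like share was 3.87% and 3.65% in WT and 10.4% and 11% with IACS-70654. That coarser class was 1 cluster led by histone and mitosis genes, and the cluster led by Hlf and Mecom, with 5791 cells, had no name there. The higher share of the stem cell-like class thus depended on where its border was drawn, and a higher share under the multipotent progenitor-like name was present at each of the 3 resolutions, though not of like clusters.

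Neutrophil progenitor-like cells, which express the azurophil granule genes Elane and Mpo, were 8.52% and 7.21% of WT libraries, 22.5% and 20.7% of vehicle libraries, and 15.1% and 14.6% of IACS-70654 libraries. Their share was 1.87-fold higher with IACS-70654 than in WT (0.91 ± 0.08, adjusted p = 1.25e-12), and the IACS-70654 libraries lay between the WT and vehicle libraries. Monocyte progenitor-like cells were 13.7% and 13.2% in WT, 22.3% and 22.4% under vehicle, and 12.3% and 12.0% under IACS-70654, a difference from WT that did not pass the test (-0.14 ± 0.07, adjusted p = 0.0659). TMM scaling of cell numbers turned its sign (0.10). Eosinophil progenitor-like cells, 0.594% and 0.428% in WT against 0.426% and 0.463% with IACS-70654, did not pass the test either (-0.24, adjusted p = 0.466).

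Erythroid progenitor-like cells were 20.5% and 20.0% of WT libraries and 12.1% and 10.4% of IACS-70654 libraries, a 1.78-fold lower share (-0.83 ± 0.07, adjusted p = 6.31e-13), with 11.2% and 9.80% in vehicle libraries. Shares of a library add up to a whole, so a higher share of some classes lowers the rest. Numbers of cells per mouse are not known. Megakaryocyte progenitor-like cells were 5.86% and 5.92% in WT and 4.24% and 4.66% with IACS-70654, 1.34-fold lower (-0.42 ± 0.10, adjusted p = 3.96e-04), which did not pass the test with TMM scaling of cell numbers (-0.17) or at the coarser resolution (-0.12). The share of the basophil or mast cell progenitor-like class was 1.96-fold lower, at 6.89% and 6.78% in WT and 3.51% and 3.43% with IACS-70654 (-0.97 ± 0.10, adjusted p = 1.27e-10), and was 9.74% and 9.34% with vehicle. Here the IACS-70654 libraries were below both other groups. Of its clusters, the one led by Prss34, Mcpt8, and Ms4a2 held 4.23% and 4.15% of WT and 1.16% and 1.04% of IACS-70654 cells, and the one led by Gzmb, Nlgn1, and Scin 2.66% and 2.63% and then 2.35% and 2.39%. Dendritic cell progenitor-like cells numbered 13 and 9 in the WT libraries, 24 and 12 in the vehicle libraries, and 0 in both IACS-70654 libraries, where a count of 0 allows a share of up to 0.0254% over both, at least 12.6-fold lower than the 0.318% of pooled WT cells. This limit covers counting error only. Plasma cell-like cells (0.774% and 0.954% in WT, 0.439% and 0.486% with IACS-70654, adjusted p = 0.00210) and T or NK cell-like cells (0.723% and 0.724% in WT, 0.466% and 0.301% with IACS-70654, adjusted p = 0.00625) were small, and both shares were lower with IACS-70654.

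**Figure D1:**
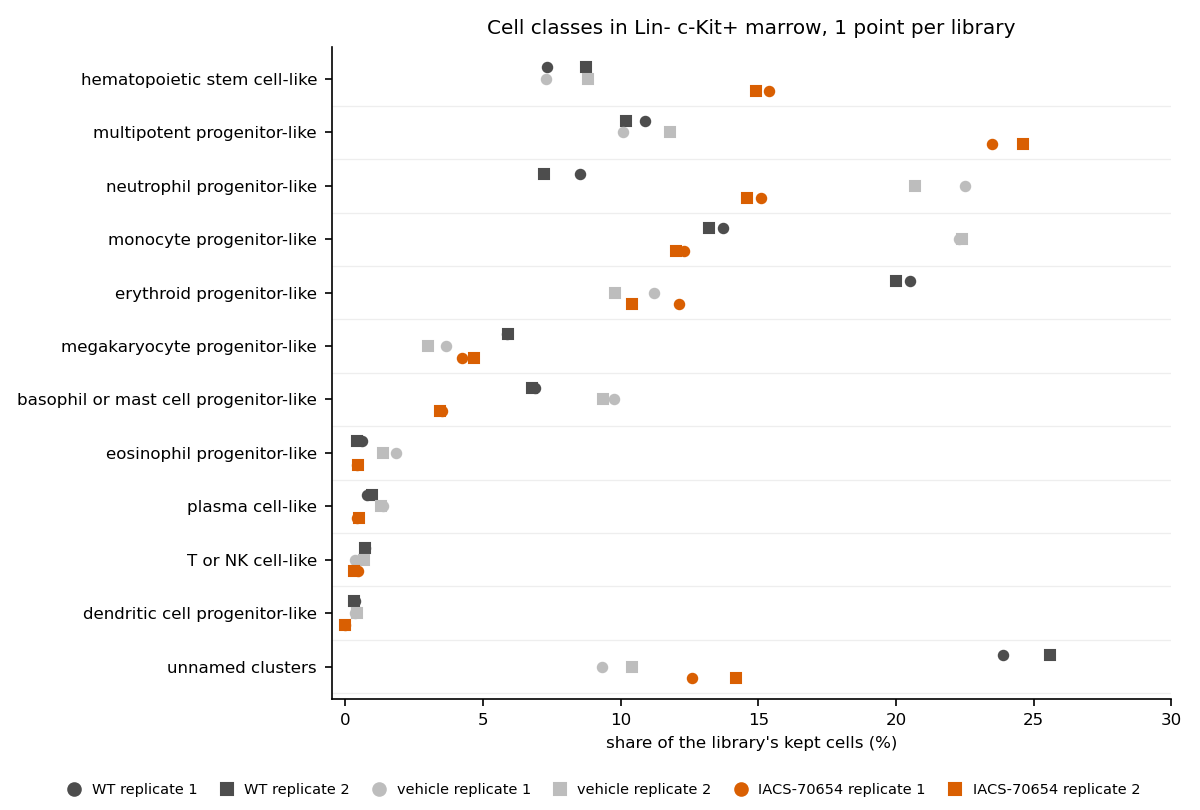
Share of each library's kept cells (x axis, percent) in each class or in unnamed clusters (y axis), with 1 point per library, dark grey for WT, light grey for vehicle, and orange for IACS-70654. Stem cell-like and multipotent progenitor-like shares lie to the right in the IACS-70654 libraries (15.4% and 14.9%, 23.5% and 24.6%), and erythroid and basophil or mast cell shares lie to the left of WT.

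Classes were drawn from the RNA itself, and some of the genes that lead a class also changed within it. Of the leading genes of each class's clusters, 1 of 10 rose and 2 fell in the stem cell-like class, 7 of 28 rose and 4 fell in the multipotent progenitor-like class, and 4 of 22 rose and 8 fell in the neutrophil class. In the monocyte class 0 of 12 rose and 5 fell, in the erythroid class 3 of 28 rose and 6 fell, in the megakaryocyte class 5 of 10 rose and 2 fell, and in the basophil or mast cell class 6 of 18 rose and 6 fell. Of the 8 markers that named each of these classes, 0 rose and 4 fell in the monocyte class and likewise in the megakaryocyte class. In the basophil or mast cell class 1 rose and 3 fell. In the stem cell-like and neutrophil classes 1 each fell, and in the multipotent progenitor-like and erythroid classes 0 were called. The basophil or mast cell class was drawn mostly from a cluster led by Prss34, Mcpt8, and Ms4a2 in WT (61.3% of the class) and from one led by Gzmb, Nlgn1, and Scin with IACS-70654 (68.0%), and the largest neutrophil cluster also differed (50.5% of the class in WT, 44.4% in another cluster with IACS-70654). The part of these gene changes in the differences of share was not tested. Clusters without a name held 23.9% and 25.6% of WT, 9.33% and 10.4% of vehicle, and 12.6% and 14.2% of IACS-70654 cells. The largest of them in WT was led by Pdzph1, Apoe, St8sia6, and Tgfbr3, with 18.2% and 19.5% in WT, 4.76% and 5.43% under vehicle, and 5.71% and 5.91% under IACS-70654. Whether its leading genes changed within it was not tested. The rule on leading genes that kept it and 4 smaller clusters without a name was tightened after the clusters were seen. Of the smaller clusters, one led by Dntt, Il7r, and Flt3 held 3.33% and 3.49% of WT and 3.51% and 4.59% of IACS-70654 cells (adjusted p = 0.0932), one led by the B cell genes Ebf1, Vpreb3, and Pax5 held 0.387% and 0.263% and then 0.705% and 0.625% (adjusted p = 0.00274), and one led by Fabp4 and Stab2 held at most 0.362%. The remaining one held 1.68% and 1.91% of WT and 2.43% and 2.78% of IACS-70654 cells (adjusted p = 0.00190).

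Over all Lin- c-Kit+ cells, 787 of 15358 genes tested rose (5.12%) and 895 fell (5.83%) by the edgeR quasi-likelihood test on sums per library, where a call needed a log2 change beyond 0.5 and an adjusted p under 0.01. With total-count scaling, the counts were 1032 and 767. Folds and log2 changes below are those of the fit, which scales libraries by TMM, and can differ from the ratio of the CPM values. In 73.8% of all genes tested the WT and IACS-70654 libraries did not overlap, so absence of overlap was common with 2 libraries a group. S100a8 and S100a9, which encode the subunits of calprotectin, an antimicrobial alarmin of neutrophils, rose the most. S100a8 (ENSMUSG00000056054) was at 54.2 and 49.2 CPM in WT, 155 and 155 under vehicle, and 764 and 870 under IACS-70654, a 14.9-fold rise (log2 change 3.90 ± 0.06, adjusted p = 5.80e-16). S100a9 was at 88.5 and 62.2, 250 and 290, and 687 and 788 CPM in the same order, 9.15-fold higher. For both genes the vehicle libraries lay between the groups compared.

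Among the other genes with the largest rises were Cdkn1a, which encodes the CDK inhibitor p21, and Hdac9, a class IIa histone deacetylase. Cdkn1a was at 10.3 and 12.0 CPM in WT, 13.5 and 14.7 under vehicle, and 32.4 and 31.1 under IACS-70654 (1.45 ± 0.07, adjusted p = 1.34e-10). Hdac9 was at 42.2 and 41.2, 52.5 and 50.9, and 120 and 113 CPM (1.42 ± 0.03, adjusted p = 1.66e-13). The interferon-inducible Ifi27l2a was at 13.5 and 13.8, 20.2 and 19.1, and 37.8 and 43.0 CPM (1.49). The adhesion receptor gene Adgrl4 rose by 1.16, the transporter gene Slco3a1 by 1.14, the neural adhesion gene Lsamp by 1.23, the calcium/calmodulin kinase gene Camk2d by 1.23, and the glycosphingolipid enzyme gene B4galt6 by 1.28 on the log2 scale. In B4galt6 the vehicle libraries, at 66.7 and 68.6 CPM, were above the IACS-70654 libraries at 52.1 and 54.3 CPM, and WT libraries were at 21.8 and 19.5 CPM. Among the largest falls was that of Apoe, which encodes the lipid carrier apolipoprotein E and fell 4.96-fold, from 335 and 367 to 75.7 and 72.4 CPM, and was at 197 and 194 CPM with vehicle.

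Other large falls were of 2 kinds by where the vehicle libraries stood. Csrp3, which encodes a LIM-domain protein known from muscle, was at 48.7 and 51.6 CPM in WT, 51.0 and 47.1 under vehicle, and 10.7 and 10.6 under IACS-70654 (-2.30), and Bex6 was at 37.4 and 36.5, 44.1 and 41.4, and 10.5 and 10.7 CPM (-1.88). Ly86, which encodes the MD-1 protein of monocytes and B cells (-1.64), and Ms4a2, the beta chain of the IgE receptor of basophils and mast cells (-1.53), were lowest with IACS-70654 too. In these 4 genes the vehicle libraries were near or above the WT level, at 46.7 and 48.9 CPM for Ly86 against 32.1 and 32.7 CPM in WT and 10.1 and 12.0 CPM with IACS-70654. The red cell membrane genes Kel (-2.0), Smim1 (-1.66), and Rhag (-1.56) and the metallothionein gene Mt2 (-1.62) instead had vehicle values below WT as well. Kel, for example, was at 37.8 and 39.7 CPM in WT, 19.4 and 19.2 under vehicle, and 9.98 and 10.4 under IACS-70654.

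**Figure D2:**
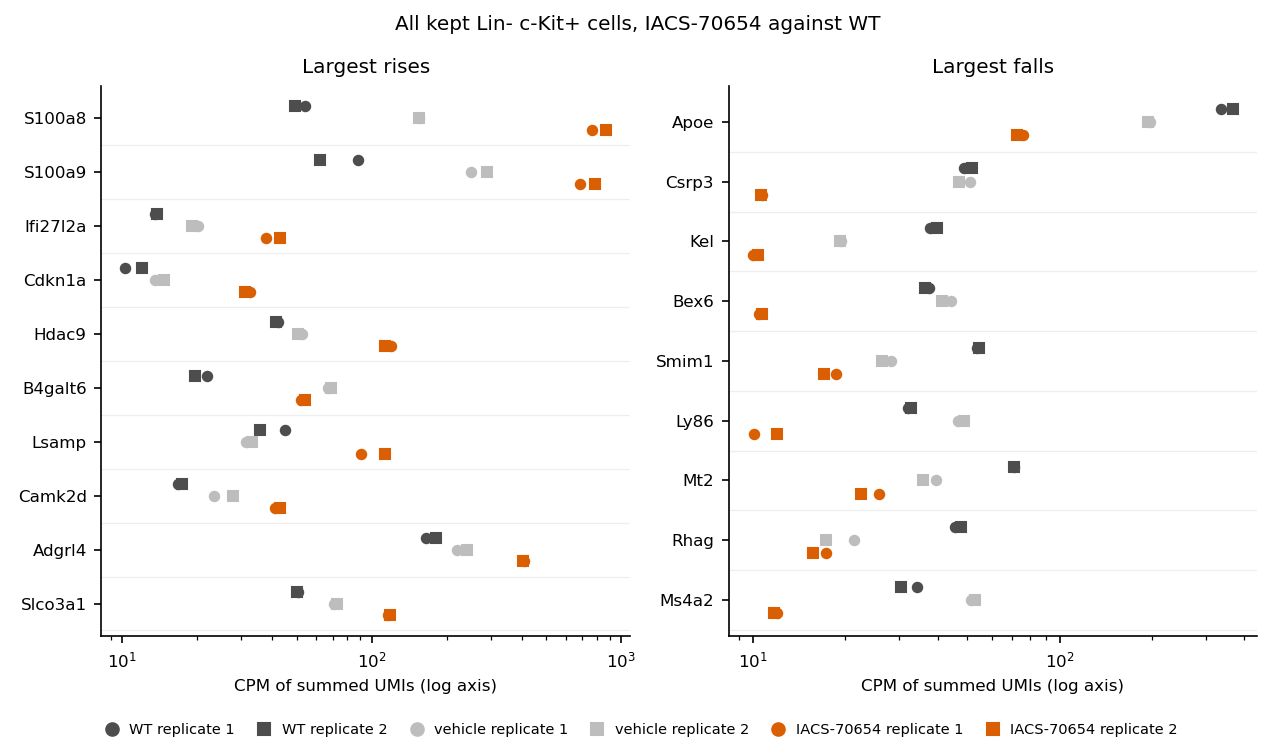
CPM of summed UMIs (x axes, log scale) of genes with the largest rises (left) and falls (right) in all kept cells, with 1 point per library, dark grey for WT, light grey for vehicle, and orange for IACS-70654. S100a8 stands at 764 and 870 CPM with IACS-70654 against 54.2 and 49.2 CPM in WT, and the replicates of a group lie close together for each gene.

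Gene lists of the lineages whose shares were lower with IACS-70654 were also lower in all cells. In such sums, fewer cells of a type and less RNA per cell cannot be told apart. Of 27 erythroid genes tested, 1 rose and 20 fell (median log2 change -0.72, against 0.00 over all genes tested). Of 16 basophil and mast cell genes 0 rose and 9 fell (median -0.93), and of 18 megakaryocyte genes 1 rose and 8 fell (median -0.44). Azurophil granule genes rose in 5 of 12 cases and fell in 1 (median 0.33), with Elane at 1409 and 1272 CPM in WT, 2800 and 2770 under vehicle, and 2608 and 2565 under IACS-70654 (0.88), and Ms4a3 (0.93) and Ctsg (0.77) next to it, whereas Cst7, which encodes cystatin F, fell (-0.92). Transcription factors of granulocytes and monocytes rose in 7 of 17 cases and fell in 0 (median 0.31), led by Gfi1 (0.86) and Cebpe (0.76), both required for granulocyte formation. Of 23 stem cell regulators 2 rose and 5 fell (median -0.16), with Hlf at 38.1 and 39.4 and 73.0 and 71.5 CPM (0.83) in WT and with IACS-70654. The neutrophil differentiation signature that the study used on these samples, and which is not independent of them, had 10 of 48 genes up and 2 down (median 0.05). Sums were next taken class by class, which separates changes within a class from changes of its share. In each class the 3 largest rises and falls over 20 CPM were named by a rule, and other values within classes, list members included, were chosen after they were seen. Of 123 called values of single classes that are printed or were named by the rule, 25 lost the call when 1 of the 4 libraries was left out, and these are named below. With DESeq2 23 lost it, and 38 lost it under at least 1 of the remaining alternatives.

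In neutrophil progenitor-like cells, calprotectin genes rose while the main azurophil granule genes changed by less than the threshold. Of 11123 genes tested, 171 rose (1.54%) and 277 fell (2.49%), 285 and 201 with total-count scaling, and 82 and 163 without WT replicate 1. S100a8 was at 350 and 278 CPM in WT, 531 and 601 under vehicle, and 3004 and 3628 under IACS-70654, 9.71-fold higher than in WT (3.28 ± 0.04, adjusted p = 2.68e-81). S100a9 was at 748 and 493, 927 and 1209, and 2934 and 3490 CPM, 4.71-fold higher (2.24 ± 0.05). Both IACS-70654 libraries were far above the other 4. The S100a8 to S100a9 ratio of UMIs was 0.468 and 0.563 in WT, 0.572 and 0.497 under vehicle, and 1.02 and 1.04 under IACS-70654, so the subunit genes did not rise in equal measure. Elane, the neutrophil elastase gene, was at 7650 and 7354 CPM in WT and 7595 and 7627 CPM with IACS-70654 (-0.07), and Mpo, the myeloperoxidase gene, at 6102 and 6023 and 6202 and 6160 CPM (-0.06), neither of which was called. Both are among the markers that named this class, so their levels in it are a description. Of 12 azurophil granule genes 0 rose and 2 fell (median -0.07, 0.02 with total-count scaling). Cst7 fell from 252 and 253 to 80.8 and 78.7 CPM (-1.75 ± 0.06, adjusted p = 1.41e-47), and Nkg7, which encodes a granule membrane protein, from 705 and 709 to 365 and 365 CPM (-1.04). Vehicle libraries were not lower than WT by this much, at 247 and 234 CPM for Cst7 and 852 and 845 CPM for Nkg7.

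Genes of later granules were low in these cells and did not move together. Lcn2, which encodes the secondary granule protein lipocalin 2, rose from 14.1 and 11.6 to 29.9 and 34.0 CPM (1.17), with 27.9 and 27.7 CPM in vehicle libraries. Fcnb, which encodes ficolin B, fell from 35.4 and 32.0 to 12.4 and 10.2 CPM (-1.64), with 56.0 and 56.6 CPM in vehicle libraries. Chil3, a chitinase-like gene, had 0 UMIs in the WT libraries and is given no fold. Hdac9 rose 4.30-fold, from 44.5 and 43.2 CPM in WT to 205 and 196 CPM with IACS-70654 (2.10 ± 0.08), and vehicle libraries were at 52.0 and 44.3 CPM. Cdkn1a rose from 7.21 and 11.1 to 26.6 and 22.2 CPM (1.41), and Mki67, the proliferation marker, by 0.63 on the log2 scale. Bex6 fell 4.80-fold, from 42.0 and 45.5 to 10.2 and 8.65 CPM. Of 16 transcription factors of granulocytes and monocytes, Nfil3 was called, and it rose. The neutrophil differentiation signature of the study, again not independent of these samples, had 2 of 46 genes up and 7 down (median -0.08, 0.01 with total-count scaling).

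Monocyte progenitor-like cells had more RNA of the calprotectin genes and of some granule genes and less RNA of several monocyte genes. Of 11442 genes tested, 321 rose (2.81%) and 270 fell (2.36%), with 192 and 207 without WT replicate 1 and 213 and 224 without IACS-70654 replicate 1. S100a8 was at 32.9 and 22.5 CPM in WT, 42.6 and 32.7 under vehicle, and 666 and 619 under IACS-70654, 22-fold higher (4.46 ± 0.06, adjusted p = 1.86e-117), and S100a9 was 14.1-fold higher. Elane was at 2916 and 2873, 3310 and 3422, and 4685 and 4632 CPM in the same order (0.64 ± 0.02, adjusted p = 2.88e-69). Here the vehicle values lay nearer to WT, and those of IACS-70654 were above both. Ms4a3 (0.68), Lyz2 (0.56), Lcn2 (1.81), and the neutrophil collagenase gene Mmp8 (1.57) rose as well, Lyz2 with no call without WT replicate 2 (0.42), so that 3 of 12 azurophil granule genes rose and 2 fell, Cst7 and Nkg7 (median 0.16). Of 7 later granule genes 3 rose and 0 fell (median 0.39), and 1 rose with DESeq2.

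Ly86 fell from 147 and 152 CPM in WT to 42.5 and 51.0 CPM with IACS-70654 (-1.75 ± 0.07, adjusted p = 1.14e-53), with 142 and 146 CPM in vehicle libraries. F13a1, which encodes a coagulation factor XIII subunit of monocytes, fell from 897 and 924 to 580 and 596 CPM (-0.68). The fractalkine receptor gene Cx3cr1 (-1.18) and the monocyte transcription factor gene Klf4 (-0.53) also fell, which makes 4 of the 8 markers that named the class, although the call of Klf4 was lost without WT replicate 1 (-0.34) and without IACS-70654 replicate 1. Irf8, the factor that directs monocyte and dendritic cell fate, was at 422 and 442 CPM in WT and 335 and 334 CPM with IACS-70654 and was not called (-0.41). The adaptor gene Lat2 fell 5.16-fold, from 39.3 and 35.9 to 7.37 and 7.89 CPM, and Serpinf1, which encodes the secreted serpin PEDF, 4.44-fold, from 62.5 and 61.8 to 14.4 and 14.5 CPM. Camk2d rose 3.97-fold, from 12.1 and 11.3 to 49.4 and 46.6 CPM. Within the S100 list the direction was mixed, since S100a4 (-1.55) and S100a6 (-0.69) fell in this class. Apoe, which fell in all other progenitor classes tested, rose here (0.66) from a low level of 22.4 and 18.0 to 34.0 and 32.5 CPM, but not with classes carried over from WT clusters (0.04).

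**Figure D3:**
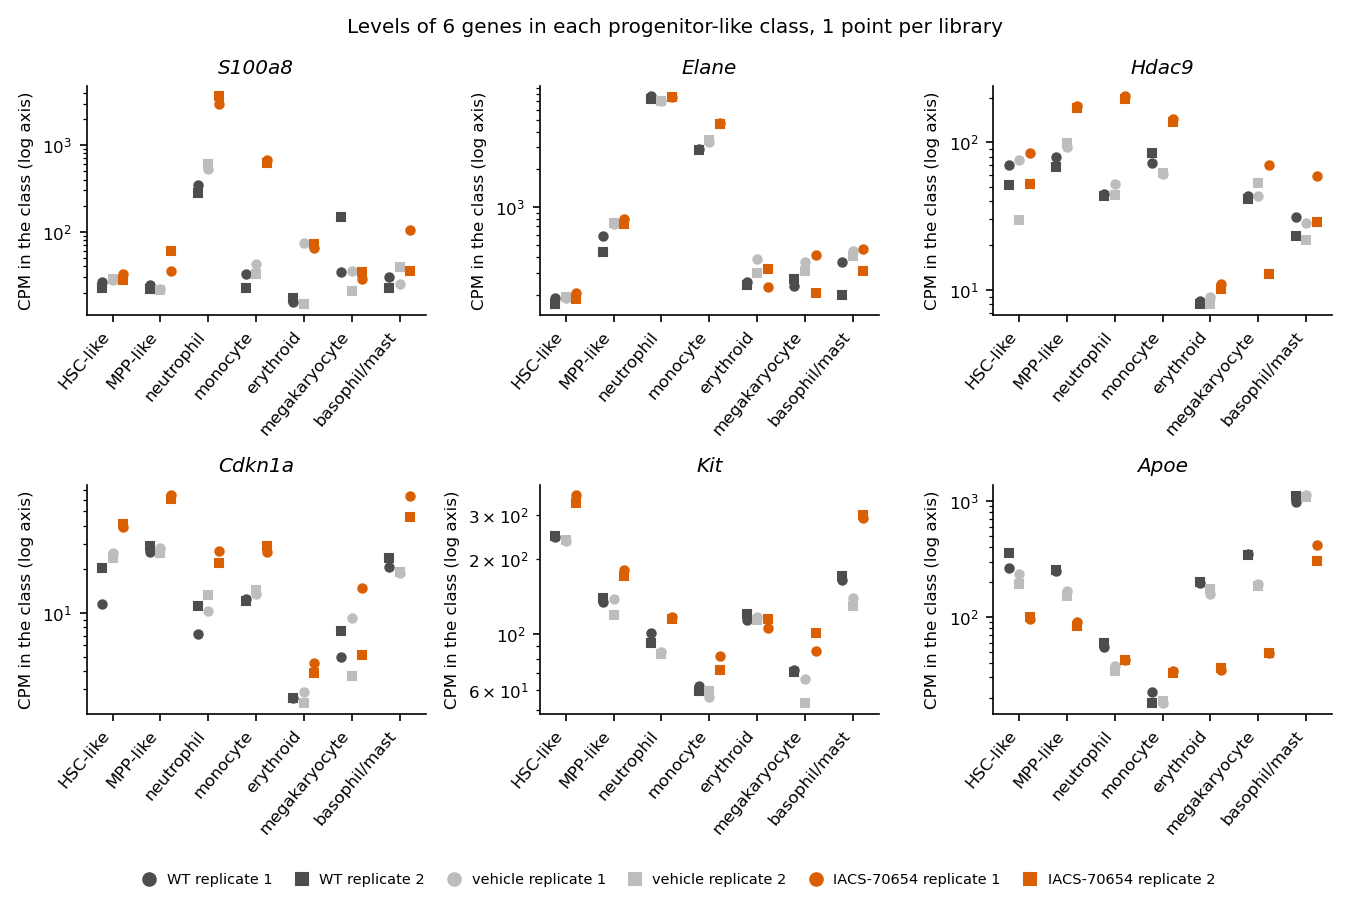
CPM (y axes, log scale) of 6 genes in each of the 7 progenitor-like classes (x axes), with 1 point per library, dark grey for WT, light grey for vehicle, and orange for IACS-70654. S100a8 stands apart with IACS-70654 in neutrophil and monocyte cells, Elane in monocyte cells and not in neutrophil cells, and Hdac9 most of all in neutrophil cells.

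Outside these lineages the change of the calprotectin genes was smaller, or it differed between settings or replicates. In the stem cell-like class S100a8 was at 26.4 and 22.7 CPM in WT and 32.8 and 28.1 CPM with IACS-70654 and was not called (0.26). In the multipotent progenitor-like class it rose from 24.6 and 22.2 to 35.0 and 59.4 CPM (0.87), while S100a9 was not called (0.31), and the rise of S100a8 was absent without the highest doublet scores (0.12), at the finer clustering (0.00), and with classes carried over from WT clusters (-0.07). In erythroid cells S100a8 was at 15.4 and 17.2 CPM in WT, 74.3 and 14.7 under vehicle, and 64.6 and 72.6 under IACS-70654 (2.03, adjusted p = 2.86e-18). Without the 5% of cells with the highest doublet scores, the values for S100a8 and S100a9 were 0.35 and 0.03 in place of 2.03 and 1.83, and neither was called. In megakaryocyte cells a fall of S100a8 (-1.60) came with unlike WT replicates of 34.9 and 148 CPM, and the value was -0.30 and not called without WT replicate 2 and -2.37 without WT replicate 1, and turned to 0.27, with no call, without the highest doublet scores. The basophil or mast cell value of 1.46 likewise came with unlike IACS-70654 replicates of 104 and 35.0 CPM and was 0.31, with no call, without replicate 1.

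Of 43 interferon response genes tested in all cells, 14 rose and 1 fell (median 0.26), and those called in multipotent progenitor-like and in monocyte cells rose too. In multipotent progenitor-like cells 238 of 11747 genes rose (2.03%) and 305 fell (2.60%), 313 and 249 with total-count scaling, and 120 and 176 without WT replicate 1. Of 41 interferon response genes tested there, 14 rose and 0 fell, with a median log2 change of 0.46 against 0.00 over all genes. Without WT replicate 1 the count was 5 and 0 (median 0.29), with DESeq2 4 and 0, and with classes carried over from WT clusters 10 and 1. Ifi27l2a was at 18.1 and 17.1 CPM in WT, 28.1 and 29.1 under vehicle, and 68.5 and 69.5 under IACS-70654 (1.91 ± 0.13, adjusted p = 1.24e-48). Oasl2, an oligoadenylate synthetase-like gene, rose by 2.42, the antiviral synthetase gene Oas2 by 1.55, Rtp4 by 1.36, and Irf7, which encodes a transcription factor that amplifies interferon production, by 1.06. Isg15, a ubiquitin-like modifier, was at 5.45 and 10.5 CPM in WT, 7.13 and 9.82 under vehicle, and 14.3 and 17.7 under IACS-70654 (0.99). Ifi27l2a, Oasl2, and Rtp4 were called without each of the 4 libraries in turn. Isg15 lost the call without WT replicate 1 (0.52), and Irf7 without either WT replicate. Oas2 lost it without 3 of the 4 libraries in turn, and its log2 change ran from 0.69 without WT replicate 1 to 2.91 without WT replicate 2.

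In monocyte progenitor-like cells 9 of 38 interferon response genes rose and 0 fell (median 0.46), 4 with DESeq2 and 13 with total-count scaling, among them Rtp4 (2.65) and Irf7 (1.82), the latter with no call without WT replicate 2 (1.18) and at 3.65 without WT replicate 1. In erythroid progenitor-like cells 1 of 40 rose and 9 fell (median -0.28), where 2.09% of all genes rose and 4.06% fell, and the difference from the other classes was not tested. With total-count scaling 1 rose and 7 fell, and with DESeq2 0 rose and 1 fell. Igtp, an interferon-induced GTPase gene, was at 6.93 and 7.94 CPM in WT, 4.37 and 5.60 under vehicle, and 3.74 and 2.42 under IACS-70654 (-1.19 ± 0.22, adjusted p = 8.20e-05), and its relative Irgm1 fell from 11.5 and 14.5 to 7.56 and 8.23 CPM (-0.74, with no call without IACS-70654 replicate 1). Isg15 fell in this class (-0.70, from 8.20 and 9.41 to 5.69 and 5.00 CPM), whereas it rose in multipotent progenitor-like cells, but this fall lost its call without 3 of the 4 libraries in turn (-0.83 to -0.61). Ifi27l2a was called higher in erythroid cells too (1.32), and not without the highest doublet scores (0.37). The stem cell-like class had 3 of 41 up and 2 down (of all genes, 1.00% up and 2.14% down), and the neutrophil class 4 of 37 up and 2 down (1.54% and 2.49%). The megakaryocyte class had 3 of 31 up and 3 down (2.71% and 4.06%), and the basophil or mast cell class 2 of 30 up and 1 down (1.42% and 2.03%). Ifitm1, which encodes a membrane protein that restricts virus entry, fell in the stem cell-like class from 799 and 780 to 514 and 535 CPM (-0.68) and was at 1751 and 1785 CPM with vehicle. At the finer clustering its change was -0.43 and was not called.

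Promoters of these genes often hold the GAAANNGAAA core of the interferon-stimulated response element, the site that interferon-activated transcription factors bind. Both strands of the 250 bases before each start site were searched in the RefSeq promoters of mm10 (GRCm38.p6), and 936 of 27025 genes (3.46%) had a match. Of 34 interferon response genes with a promoter in that table, 17 had one, among them 2 of 8 (25.0%) that rose in multipotent progenitor-like cells and 3 of 7 (42.9%) that fell in erythroid cells. Stretches around the match are shown for those genes, because Isg15 was called higher in one of these classes and lower in the other and has a single promoter in the table. The capitals mark the matches, which overlap one another where there are several in a stretch, and each sequence is read 5′ to 3′ on the strand of the gene, with Igtp at chr11:58199497-58199555 on the plus strand, Irgm1 at chr11:48871421-48871469, Isg15 at chr4:156200850-156200909, and Oas1a at chr5:120907526-120907564 on the minus strand.
Igtp: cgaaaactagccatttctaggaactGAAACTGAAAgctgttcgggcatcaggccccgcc
Irgm1: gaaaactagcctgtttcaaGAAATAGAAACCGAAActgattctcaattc
Isg15: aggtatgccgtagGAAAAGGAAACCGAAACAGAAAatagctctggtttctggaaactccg
Oas1a: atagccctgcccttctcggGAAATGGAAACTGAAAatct
A match describes the letters of a promoter and does not show binding. Oas1a rose in multipotent progenitor-like cells (0.75), from 8.31 and 11.7 CPM in WT to 16.1 and 18.4 CPM with IACS-70654, and lost the call without WT replicate 1 (0.49) and without IACS-70654 replicate 2 (0.67).

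Multipotent progenitor-like cells also changed in genes outside the interferon list. S100a6, a calcium-binding protein gene, rose 3.29-fold from 14.9 and 12.1 to 45.6 and 48.5 CPM, and Ddah2, an enzyme of methylarginine breakdown, 2.87-fold from 14.6 and 14.4 to 42.9 and 43.7 CPM, while the vehicle libraries were at 22.4 and 25.2 and 14.4 and 10.2 CPM. Bex6 fell 7.13-fold from 69.1 and 56.4 to 9.53 and 8.73 CPM, and Serpinf1 4.81-fold from 45.0 and 42.8 to 9.53 and 9.38 CPM. Lineage genes moved in both directions. Elane was at 585 and 442 CPM in WT, 727 and 743 under vehicle, and 803 and 735 under IACS-70654 (0.52), and Dntt, the lymphoid DNA polymerase gene, rose (0.67), while Irf8 fell from 97.4 and 101 to 60.7 and 62.3 CPM (-0.74) with 103 and 102 CPM in vehicle libraries. Mecom (-0.54), which serves stem cell maintenance, fell as well. The call of Elane was lost without WT replicate 2 (0.35) and IACS-70654 replicate 1 (0.46), and that of Mecom without IACS-70654 replicate 2 (-0.46). Cdkn1a rose (1.16) and the cyclin gene Ccnd2 fell (-0.62), yet 5 of 54 G2/M genes rose and 0 fell (median 0.31), Ccnb2 (0.61), Cdc25c (0.74), and Ube2c (0.58) among them. Without WT replicate 1 the calls of these 3 genes and of Ccnd2 were lost and 1 of the 54 was called, without WT replicate 2 it was 9, and with classes carried over from WT clusters 0 (edgeR), with a median of 0.21. Cdc25c also lost its call without WT replicate 2 (0.72) and without IACS-70654 replicate 2 (0.63). The cluster of this class led by cycling genes was 28.7% of it in WT and 32.6% with IACS-70654, and the one led by Hmga2, Hdac9, and Flt3 was 26.3% and 17.4%.

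In stem cell-like cells Slamf1 RNA was lower with IACS-70654. Hlf, a transcription factor of stem cells, led the cluster that makes this class, and all 10 leading genes were used to draw it, so its level there is a description. Of 10789 genes tested in the stem cell-like class, 108 rose (1.00%) and 231 fell (2.14%), and 195 and 167 with total-count scaling, which turned the balance. Without WT replicate 1 the counts were 70 and 118, without WT replicate 2 the falls were 145, and without IACS-70654 replicate 1 they were 134. Hlf was at 415 and 383 CPM in WT, 411 and 404 under vehicle, and 437 and 444 under IACS-70654 (0.06). Neither Hlf nor Meis1 (0.33), Mllt3 (-0.07), nor Mecom (-0.46) was called. Of the other markers that named the class, Pdzk1ip1 was called lower, though not at the finer clustering (0.09). Procr (-0.85), Fgd5 (-1.17), and Gata2 (-0.05) were not called, but Fgd5 was called lower with classes carried over from WT clusters (-1.44). Of 22 stem cell regulators tested 0 rose and 3 fell (median -0.17), Tcf15 and Prdm16 among them. At the finer clustering 1 of 19 rose and 0 fell (median 0.18), and without WT replicate 2 the falls were 1. Tcf15 rested on 13 and 10 UMIs in WT and 9 and 8 UMIs with IACS-70654. It was not tested at the finer clustering, where its levels overlapped (24.0 and 11.8 CPM in WT, 8.47 and 15.9 CPM with IACS-70654). In the smaller stem cell-like class of the finer clustering Mecom was 0.35 in place of -0.46. Slamf1, which encodes the stem cell surface protein CD150, was at 25.0 and 35.4, 21.6 and 18.1, and 8.0 and 6.24 CPM (-2.11) and was called lower in the finer clustering as well (-1.44).

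The 3 genes with the largest rises that the rule named in this class were Sema3d, S100a4, and S1pr1. Sema3d, a semaphorin gene, was at 15.6 and 6.37 CPM in WT, 26.1 and 24.7 under vehicle, and 62.9 and 49.9 under IACS-70654, 4.94-fold higher (2.30 ± 0.21, adjusted p = 1.26e-24, and 3.11 without WT replicate 1). S1pr1, the sphingosine 1-phosphate receptor gene that guides egress from marrow, was at 9.47 and 7.08, 20.0 and 15.6, and 34.2 and 31.2 CPM (1.91), and S100a4 at 16.9 and 18.4, 44.1 and 26.3, and 62.2 and 88.0 CPM (1.94). In each of these 3 genes the vehicle libraries lay between the groups, and S100a4 was not called at the finer clustering (1.04). Dlg2, a synaptic scaffold gene, fell 4.15-fold from 101 and 93.4 to 24.4 and 25.6 CPM, and 2.12-fold at the finer clustering. Cdkn1a rose from 11.5 and 20.5 CPM in WT to 39.3 and 41.2 CPM with IACS-70654 (1.25, and 0.89 with no call without WT replicate 1), and Ccnd2 fell by 0.73 on the log2 scale (-0.48, with no call, at the finer clustering). The AP-1 gene Fos fell from 281 and 278 to 147 and 144 CPM (-1.02), with 215 and 212 CPM in vehicle libraries, and Fosb from 152 and 158 to 62.5 and 66.9 CPM (-1.35).

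**Figure D4:**
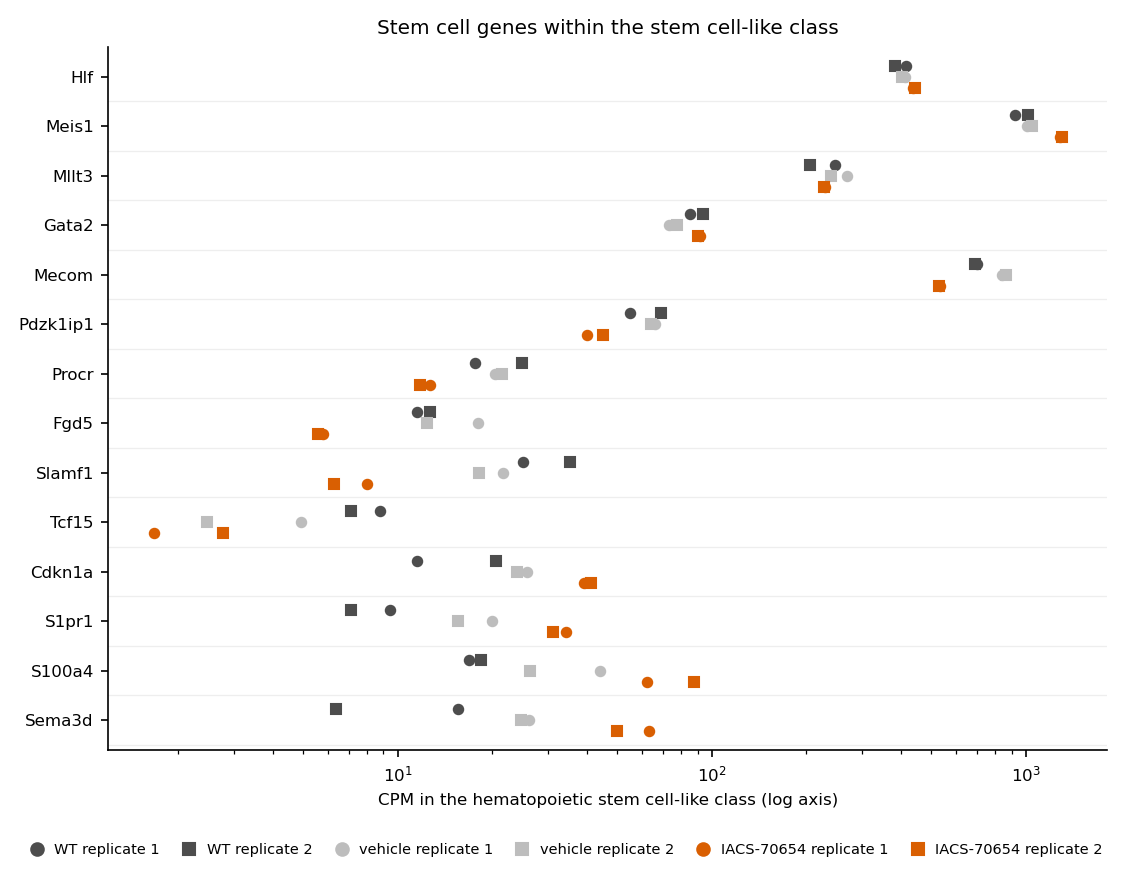
CPM within the stem cell-like class (x axis, log scale) of 14 genes (y axis), with 1 point per library, dark grey for WT, light grey for vehicle, and orange for IACS-70654. Hlf and Mllt3 levels lie together in all groups. Slamf1, Pdzk1ip1, Procr, Fgd5, and Tcf15 lie lower with IACS-70654 than in WT, Tcf15 from at most 13 UMIs a library. Sema3d, S100a4, and S1pr1 lie higher.

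Erythroid progenitor-like cells had more beta globin RNA and less RNA of Rh complex genes. Of 11702 genes tested, 244 rose (2.09%) and 475 fell (4.06%). Hbb-bs was at 127 and 154 CPM in WT, 362 and 314 under vehicle, and 503 and 501 under IACS-70654, 3.55-fold higher (1.83 ± 0.05, adjusted p = 3.78e-24), and Hbb-bt rose by 1.11. Hbb-bs and Hbb-bt are near-identical copies, so reads may be split between them. Hbb-bt was not called with DESeq2 (1.16) or with equal numbers of cells (1.01). The alpha globin genes Hba-a1 and Hba-a2 were tested in this class and not called. Of 27 erythroid genes, 2 rose and 6 fell (median -0.23). The falls were in the sphingosine kinase gene Sphk1 (-0.73), Rhag (-0.73), and Rhd (-0.57) of the Rh complex, Hemgn (-0.60), and the heme synthesis genes Ppox (-0.57) and Cpox (-0.51). The calls of the last 2 were lost without single libraries. Ppox was at -0.33 without IACS-70654 replicate 1 and -0.55 without WT replicate 1. Cpox was at -0.47 without WT replicate 2 and -0.49 without IACS-70654 replicate 2. The finer clustering left 3 falls, and Rhd was not called there (-0.46). Klf1 (-0.10) and Gata1 (0.03), the master transcription factors, and the erythropoietin receptor gene Epor (0.03) were not called. Apoe was 5.75-fold lower, at 197 and 199 CPM in WT, 156 and 175 under vehicle, and 34.6 and 36.0 under IACS-70654 (-2.52 ± 0.05). C1qtnf12, which encodes a secreted C1q-like protein, fell 5.28-fold from 38.5 and 40.7 to 7.73 and 7.42 CPM, and Zg16, a lectin gene, 5.00-fold from 57.0 and 56.6 to 11.4 and 11.9 CPM, while vehicle libraries were at 39.8 and 45.6 and 65.9 and 72.0 CPM, no lower than WT.

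Megakaryocyte progenitor-like cells had lower RNA of ribosome biogenesis genes. Of 9684 genes tested, 262 rose (2.71%) and 393 fell (4.06%). Total-count scaling gave 502 and 248 and shifted the median over all tested genes to 0.12 from 0.02, and without WT replicate 2 the counts were 84 and 176. Of 35 ribosome biogenesis genes 0 rose and 20 fell, with a median of -0.60, against 0.02 over all genes. The falls were 13 without WT replicate 2, 15 with total-count scaling, and 14 with DESeq2. The medians of the same 35 genes were -0.37 in the basophil or mast cell class (5 fell), -0.22 in the multipotent progenitor-like class (3 fell), -0.22 in the stem cell-like, -0.13 in the monocyte, -0.08 in the erythroid, and -0.03 in the neutrophil class, and the difference between classes was not tested. Ncl, the nucleolin gene, was at 1443 and 1576 CPM in WT, 1398 and 1536 under vehicle, and 920 and 930 under IACS-70654 (-0.81 ± 0.05, adjusted p = 2.05e-13). Npm1, which encodes the nucleolar chaperone nucleophosmin, was at 2624 and 2690, 2624 and 2633, and 1907 and 1863 CPM (-0.60). The WT and vehicle libraries were alike in both genes. Myc, the growth regulator known to drive this program, was called lower (-0.76), though not without IACS-70654 replicate 1 (-0.35) or WT replicate 2. Of 43 S-phase genes 7 fell (2 without WT replicate 2, with total-count scaling, and with DESeq2, and 4 without IACS-70654 replicate 2), as did 6 of 16 heat shock and RNA quality genes, such as Hsp90aa1 (-0.77), and the cyclin gene Ccnd2 (-1.01).

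Platelet genes of this class divided. Of 18 megakaryocyte genes 5 rose and 5 fell (median 0.23), and 4 and 3 without WT replicate 1. Gp9 (-0.44 without WT replicate 1) and Ppbp (-1.06) each lost the call without 3 of the 4 libraries in turn, and Ppbp was at -2.88 without IACS-70654 replicate 1. Vwf, the von Willebrand factor gene, was at 175 and 176 CPM in WT, 239 and 262 under vehicle, and 86.3 and 100 under IACS-70654 (-1.04), and the platelet glycoprotein genes Gp5 (-1.05) and Gp9 (-0.62), and the chemokine gene Ppbp (-1.46) fell. Itgb3, the integrin beta 3 gene, rose from 89.2 and 80.4 to 216 and 226 CPM (1.26), with Cd9 (0.84) and Rab27b (0.77), whereas Pf4 (0.33) and Itga2b (0.30) were not called. Pdzd2 rose 5.4-fold, from 8.31 and 10.9 CPM in WT to 52.1 and 60.5 CPM with IACS-70654, the phospholipid flippase gene Atp8b1 4.42-fold, from 9.97 and 7.49 to 42.4 and 42.6 CPM, and the phosphodiesterase gene Pde3a 3.95-fold, from 33.8 and 48.4 to 170 and 175 CPM. Their vehicle libraries were at 24.5 and 24.7, 16.2 and 11.1, and 56.4 and 74.1 CPM. Apoe fell 7.62-fold from 349 and 343 to 49.0 and 48.5 CPM, and Nkg7 5.15-fold from 135 and 136 to 33.7 and 19.6 CPM. Median UMIs per cell of this class were 7103 and 7464 in WT and 5189 and 5272 with IACS-70654, and the part of this difference in these results was not tested.

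In sums over the basophil or mast cell progenitor-like class, Mcpt8, Ms4a2, and Gzmb were lower and Cpa3 was higher. Of 9185 genes tested, 130 rose (1.42%) and 186 fell (2.03%), 219 and 133 with total-count scaling, and 88 and 101 without IACS-70654 replicate 1. Mcpt8, the basophil protease gene, was at 2415 and 2141 CPM in WT, 4072 and 4737 under vehicle, and 1690 and 1478 under IACS-70654 (-0.61 ± 0.05, adjusted p = 3.21e-11). Its call was lost in classes carried over from WT clusters (-0.48) and without the highest doublet scores (-0.50). Cpa3, which encodes mast cell carboxypeptidase A, was at 1271 and 1341, 1444 and 1691, and 3115 and 2960 CPM (1.13 ± 0.05, adjusted p = 2.10e-21). The granzyme gene Gzmb fell from 193 and 261 to 71.2 and 54.8 CPM (-1.87), and Ms4a2 fell (-0.61), but Prss34 (-0.25) and Gata2 (-0.05) were not called. Kit, whose product mast cells retain, rose from 165 and 171 to 291 and 300 CPM (0.72). Pde3a rose 17.4-fold, from 6.47 and 3.20 CPM in WT to 91.7 and 104 CPM (log2 change 4.12, and 4.75 without WT replicate 1), Lsamp 5.52-fold, from 55.9 and 32.0 to 201 and 374 CPM, and the protein kinase C beta gene Prkcb 4.89-fold, from 40.0 and 37.6 to 192 and 222 CPM. Vehicle libraries were within or below the WT values in all 3, at 3.49 and 1.20, 47.5 and 19.9, and 18.6 and 30.1 CPM. The leukotriene B4 receptor gene Ltb4r1 fell 4.88-fold from 64.1 and 52.0 to 13.1 and 12.2 CPM, and the adaptor gene Dok2 4.35-fold from 36.5 and 43.2 to 12.3 and 4.57 CPM (log2 change -2.12, and -3.16 without IACS-70654 replicate 1). The 2 clusters of this class, which both had Cpa3 among their leading genes, stood in different proportions in the groups. The one led by Prss34, Mcpt8, and Ms4a2 was 61.3% of the class in WT and 32.0% with IACS-70654. Median UMIs per cell were 5661 and 5466 in WT and 3819 and 3584 with IACS-70654. The part of these proportions and of this depth in the gene changes of the class was not tested.

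**Figure D5:**
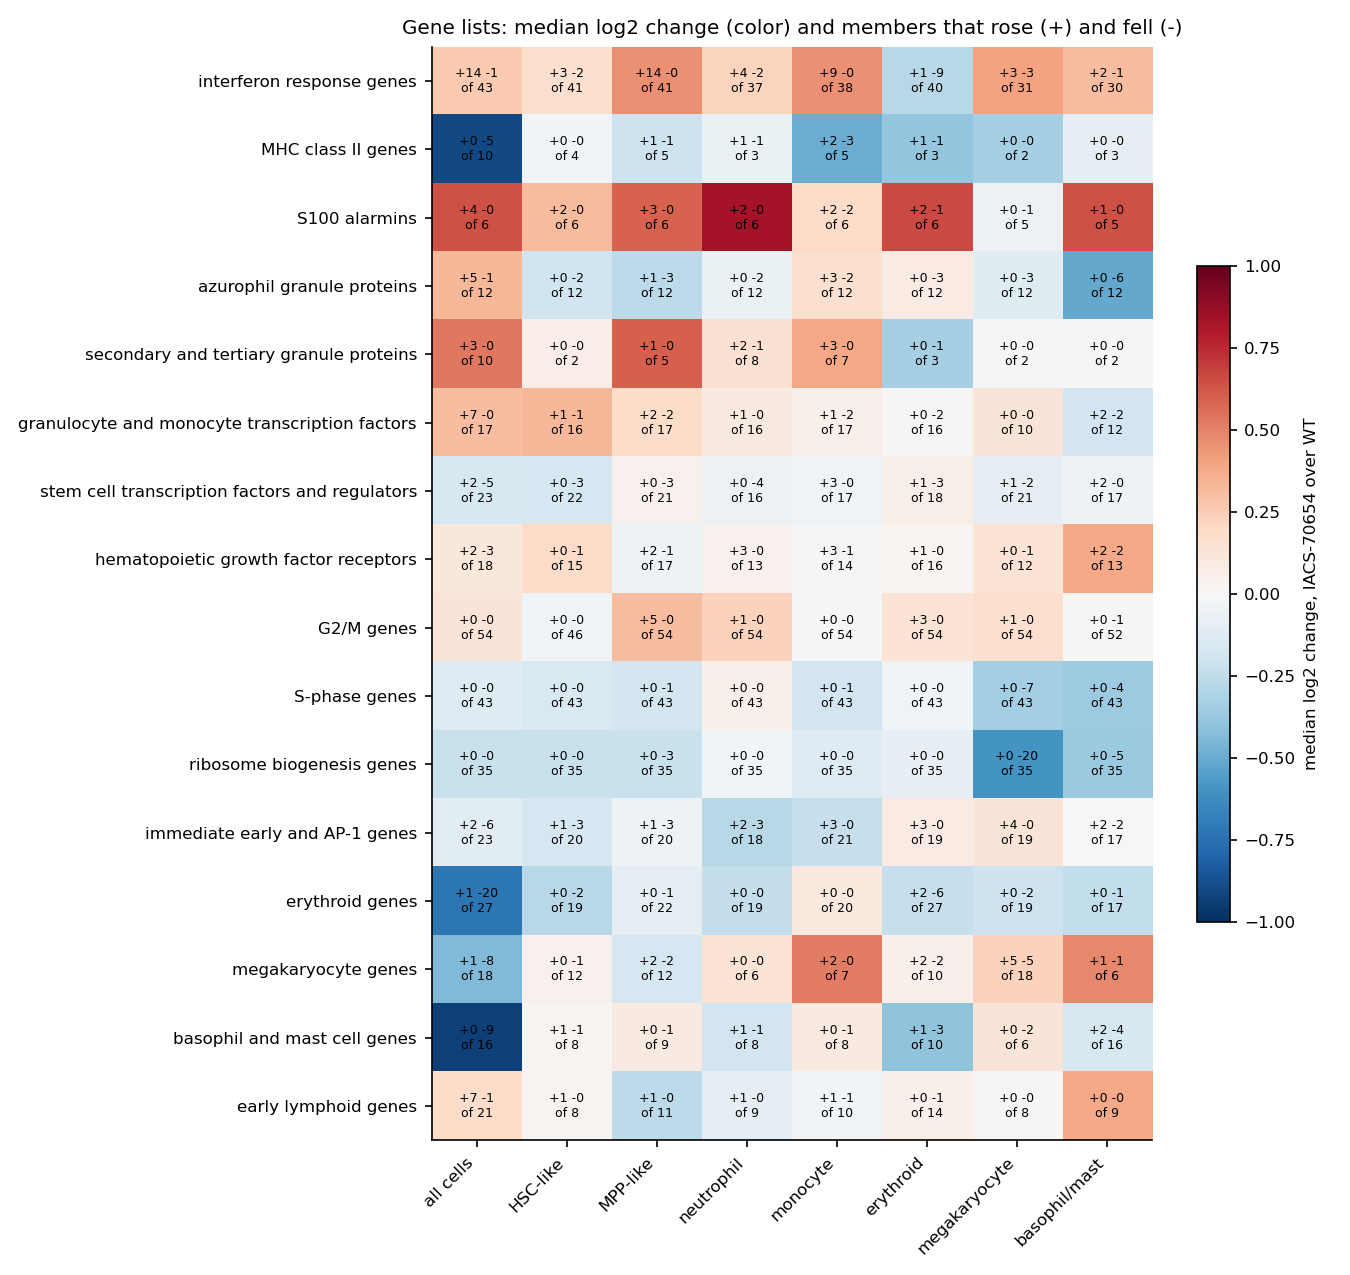
Median log2 change, IACS-70654 over WT (color, blue for lower and red for higher), of 16 gene lists (rows) in all cells and in 7 classes (columns), with the number of members that rose and fell and the number tested in each cell. Interferon response genes stand at 14 up and 0 down of 41 in multipotent progenitor-like cells and 1 up and 9 down of 40 in erythroid cells, and ribosome biogenesis genes at 20 down of 35 in megakaryocyte cells.

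In plasma cell-like cells 1 of 2602 genes rose (0.0384%) and 8 fell (0.307%), and leaving out each library in turn gave 10 to 21 higher and 29 to 35 lower. Tnfrsf17, which encodes the survival receptor BCMA of plasma cells, was at 180 and 207 CPM in WT, 91.2 and 125 under vehicle, and 28.8 and 44.1 under IACS-70654 (-2.60 ± 0.31, adjusted p = 0.00185, and 0.0113 with all 6 libraries in the fit). Cd52 fell by 1.57 and Txndc5, which encodes a disulfide isomerase of the secretory pathway, by 1.40 on the log2 scale, and Jchain, the joining chain of secreted antibody, was at 33881 and 34048 CPM in WT and 20385 and 22755 CPM with IACS-70654 (-0.80). With all 6 libraries in the fit these 3 genes lost the call as well (adjusted p = 0.0113 to 0.0138).

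Few genes were called in every progenitor class. Of 8636 genes tested in all 7 progenitor classes, 1 rose in all 7 and 6 fell in all 7, and of 12908 genes tested in any class, 2355 were called in 1 class or more. Ier5, an immediate early gene, rose in all 7 with log2 changes from 0.71 to 1.02. Nkg7 (-2.37 to -0.64), the centromere protein gene Cenpv (-1.44 to -0.66), the aspartic peptidase gene Napsa (-1.31 to -0.54), 4930519L02Rik (-3.09 to -0.97), and Gm47283 (-2.32 to -1.56) were among those that fell. In 5 classes or more, 11 genes rose and 43 fell. Ifi27l2a was called higher in 6 classes and Cdkn1a in 5. Over all 7 classes their log2 changes were 0.79 to 1.91 and 0.69 to 1.41, so a missing call is not a missing change. Apoe fell in 6 classes and rose in monocyte progenitor-like cells, and 64 genes in all rose in one class and fell in another.

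Differences of the change between early and neutrophil-committed cells were tested directly, with the library as a block. Of 12483 genes, 46 (0.369%) changed more positively in neutrophil progenitor-like cells than in stem cell-like and multipotent progenitor-like cells together, and 53 (0.425%) more positively in the early cells. Without WT replicate 1 the counts were 22 and 25, and without WT replicate 2 the latter was 32. S100a8 was at 25.2 and 22.3 CPM in early WT cells and 34.4 and 50.9 CPM in early IACS-70654 cells, against the larger rise in neutrophil cells given above, a difference of 2.56 ± 0.12 on the log2 scale (adjusted p = 2.81e-69). Lyz2, the lysozyme gene, was at 115 and 107 CPM in WT and 60.0 and 63.5 CPM with IACS-70654 in early cells, and at 49.5 and 48.7 CPM in WT and 58.2 and 64.9 CPM with IACS-70654 in neutrophil cells, a difference of 1.15 ± 0.12. Ly6c2, a surface antigen of myeloid cells, was at 11.1 and 8.78 CPM in early WT and 11.4 and 10.5 CPM in early IACS-70654 cells, and fell from 77.4 and 66.4 to 29.0 and 33.0 CPM in neutrophil cells (-1.41 ± 0.19). Cpa3 was at 81.5 and 93.1 CPM in WT and 143 and 133 CPM with IACS-70654 in early cells, and at 32.6 and 44.6 CPM in WT and 22.1 and 27.5 CPM with IACS-70654 in neutrophil cells (-1.35 ± 0.15). Elane, at 467 and 345 CPM in early WT cells and 629 and 584 CPM in early IACS-70654 cells, differed in its change by -0.58 ± 0.03.

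Malat1 and Txnip are genes that the study names for these cells, so their choice is not independent of these samples, and differences between classes were not tested. Malat1, a nuclear long noncoding RNA, was at 6062 and 6028 CPM in WT, 6176 and 6299 under vehicle, and 14383 and 15331 under IACS-70654 in megakaryocyte cells (1.19) and rose in basophil or mast cell (0.98) and stem cell-like cells (0.55). It was not called in multipotent progenitor-like (0.50), neutrophil (0.07), monocyte (0.32), or erythroid cells (0.35). Txnip, which encodes a regulator of thioredoxin and glucose uptake, was at 67.0 and 62.0, 52.9 and 44.5, and 169 and 174 CPM in megakaryocyte cells (1.29) and was called higher in basophil or mast cell cells (0.59), though not without IACS-70654 replicate 2 (0.45). In stem cell-like cells it was at 237 and 211 CPM in WT, 149 and 128 under vehicle, and 305 and 319 under IACS-70654 and was not called against WT (0.39). In the smaller stem cell-like class of the finer clustering, Txnip was called higher (0.80), at 363 and 386 CPM in WT and 675 and 697 CPM with IACS-70654. Of the other genes the study names, Ms4a3 rose in monocyte cells (0.68) and was called lower in basophil or mast cell cells (-0.62), though not without IACS-70654 replicate 2 (-0.41) or WT replicate 1. Prtn3, the proteinase 3 gene, stayed under the log2 threshold in the 7 classes (-0.29 to 0.35).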

How the data were processed

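Lin- c-Kit+ cells (DAPI- CD45+, negative for markers of mature blood lineages) were sorted from tibia and femur, tagged with CellPlex, and sequenced with 10x 3′ chemistry. The deposited values are UMI counts per gene and cell, which the authors made with Cell Ranger on mm10, and the submitters' notes also name Seurat. Members and gene lists were chosen with earlier results of these data known.

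Cells were filtered as stated above, and the 6 Lin- c-Kit+ libraries were clustered (scanpy 1.11.5, leidenalg 0.10.2, 2000 variable genes, 30 components, 20 neighbors, resolution 1). Genes of the response lists were left out of the variable genes unless they were also cell type markers. List members that are markers, such as Hlf, could thus be used, as were other genes that changed within classes. Clusters were named by markers, and 25 clusters gave 11 classes and 5 unnamed clusters. A doublet caller marked at most 5 cells a library (0.176%) and so did not work here, and tags remove only doublets between samples. Counts were summed per library and class, for the 8 classes with 20 cells or more in each library compared, and tested with edgeR 4.0.16 (R 4.3.3, limma 3.58.1) quasi-likelihood fits, TMM scaling, and Benjamini-Hochberg adjustment over all genes tested. Calls needed a log2 change beyond 0.5 with an adjusted p under 0.01. Shares were tested with edgeR on cell numbers at an adjusted p under 0.05. With 2 against 2 libraries an exact permutation test cannot go below p = 0.333 and was not used. Named genes were the 10 largest rises and falls in all cells and the 3 in each class and in the interaction, among called genes at 20 CPM or more with both IACS-70654 libraries on one side of both WT libraries (leaving out predicted, immunoglobulin, T cell receptor, mt-, Rpl, Rps, Xist, and Tsix genes), up to 4 members of each of 27 lists, and the genes the study names. Alternatives were DESeq2 1.42.0, other scalings, filters, clusterings, equal numbers of cells (3039 a library), removal of the 5% highest doublet scores, a replicate block, and leaving out each library. The tests were checked on simulated data. A few genes are not reported here. The authors' integration and downsampling were not repeated.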

Additional observations from a re-analysis of the deposited data

Results flagged for a closer look

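Of the 99 genes called, the 6 named by the rule are given here, in which the change from WT to IACS-70654 differed between neutrophil progenitor-like cells and stem cell-like plus multipotent progenitor-like cells, by the interaction test in edgeR with Benjamini-Hochberg adjustment. The change was more positive in neutrophil cells by 2.56 for S100a8, 2.12 for S100a9, and 1.15 for Lyz2 on the log2 scale. It was more negative there by -1.56 for Clec4a2, -1.41 for Ly6c2, and -1.35 for Cpa3. Clec4a2, a C-type lectin gene, was at 2.42 and 0.753 CPM in early WT cells and 1.74 and 1.42 CPM in early IACS-70654 cells, near the limit of detection, and its call was lost without either WT replicate, without IACS-70654 replicate 1, and with classes carried over from WT clusters.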

How the results depend on the processing

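Counts of genes, shares, and named genes were each recomputed under a part of the alternatives. Shares were not recomputed with DESeq2 or with equal numbers of cells. The dendritic cell progenitor-like share is given under no alternative. Among classes carried over from WT clusters, the cluster led by H2-Aa and Cd74 earned no name. DESeq2 called fewer genes, with 512 higher in all cells, 33 higher and 62 lower in stem cell-like, 65 and 122 in multipotent progenitor-like, 43 and 126 in neutrophil, 102 and 115 in monocyte, 83 and 248 in erythroid, 71 and 156 in megakaryocyte, 45 and 51 in basophil or mast cell, and 0 and 5 in plasma cells. Total-count scaling gave 195 higher in stem cell-like, 285 in neutrophil, 502 higher and 248 lower in megakaryocyte, and 219 higher in basophil or mast cell cells. It moved the median of all genes in plasma cells from -0.01 to 0.16. With equal numbers of cells, 157 and 201 genes were called in multipotent progenitor-like, 62 and 73 in basophil or mast cell, and 0 higher in plasma cells. The finer clustering, added after the data were seen for genes, gave 28 and 71 in stem cell-like cells, and classes from WT clusters 70 genes more positive in neutrophil cells. Plasma cell counts were 0 and 1 with 6 libraries in the fit, 25 and 49 with no filter, and 5 and 14 without high doublet scores. Those small counts are unstable.

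Log2 differences in share were -0.60 (T or NK), 0.48 (Dntt cluster), 0.00 (eosinophil), -0.17 (megakaryocyte), and 0.10 (monocyte) with TMM scaling of cell numbers, -0.68 (T or NK) and -0.16 (monocyte) without high doublet scores, -0.36 for monocytes among progenitors only, -0.13 for stem cell-like cells at the finer and -0.12 for megakaryocyte cells at the coarser resolution. Without WT replicate 1 the eosinophil value was 0.04. Of the named genes, in the sums where they were named, 2 that were not called turned sign, Cst3 to -0.01 without WT replicate 2 (-0.01 to 0.06 over the 4 libraries left out) and Slc2a6 to -0.06 with equal numbers of cells. Some other printed values turned sign too, such as S100a8 in megakaryocyte cells without the highest doublet scores.

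Leaving out each library gave share differences of 0.79 to 1.05 (stem cell-like), 1.14 to 1.23 (multipotent progenitor-like), 0.8 to 1.04 (neutrophil), -0.17 to -0.11 (monocyte), -0.96 to -0.75 (erythroid), -0.47 to -0.34 (megakaryocyte), -1.0 to -0.96 (basophil or mast cell), -0.43 to 0.04 (eosinophil), -1.06 to -0.76 (plasma), and -1.25 to -0.63 (T or NK). The unnamed clusters gave -1.76 to -1.65 (Apoe and Pdzph1), 0.05 to 0.43 (Dntt), 0.8 to 1.35 (Ebf1), 0.43 to 0.64, and -0.46 to -0.12 (Stab2). Numbers of genes higher and lower were 585 to 772 and 727 to 881 in all cells, 70 to 93 and 118 to 163 in stem cell-like, 120 to 206 and 176 to 254 in multipotent progenitor-like, 82 to 150 and 163 to 241 in neutrophil, 192 to 283 and 207 to 249 in monocyte, 181 to 243 and 395 to 461 in erythroid, 84 to 241 and 176 to 369 in megakaryocyte, 88 to 122 and 101 to 199 in basophil or mast cell, 10 to 21 and 29 to 35 in plasma cells, and 22 to 41 and 25 to 48 in the interaction.

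The libraries share only a replicate number, since deviations of equally numbered libraries correlated by 0.04 over 6260 genes. With the replicate block the monocyte share differed by -0.15 (adjusted p = 0.0461), and 157 of 157 values of named genes kept direction and call, while the printed fall of Jchain in plasma cells lost its call (adjusted p = 0.0178). Over 2223 recomputed values of named genes in the sums where they were named, 2164 kept both, 39 lost the call, 18 gained one, and 2 turned sign. In small classes the number of cells and UMIs limits the precision of each value.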

Other observations

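Some early lymphoid genes and MHC class II genes were called in all cells, where 5.12% of all genes rose and 5.83% fell. Of 21 early lymphoid genes 7 rose and 1 fell (median 0.18), and the surrogate light chain gene Igll1 was at 1.96 and 1.91 CPM in WT, 3.62 and 5.44 under vehicle, and 3.42 and 5.00 under IACS-70654 (1.00 ± 0.18, adjusted p = 3.53e-04). Its call was lost without WT replicate 1 (adjusted p = 0.0123). The B cell factor gene Ebf1 rose (0.90), while Ighm, the immunoglobulin mu chain gene, fell (-0.95). Within the stem cell-like and multipotent progenitor-like classes, Dntt was the 1 gene of this list that was called, and it rose in both. The cluster led by Ebf1, Vpreb3, and Igll1 held 0.387% and 0.263% of WT and 0.705% and 0.625% of IACS-70654 cells, and its part in these sums was not tested. Of 10 MHC class II genes 0 rose and 5 fell (median -0.90), with H2-Eb1 at 3.00 and 3.49 CPM in WT, 4.12 and 3.47 under vehicle, and 0.844 and 1.23 under IACS-70654 (-1.77). Dendritic cell progenitor-like cells, led by H2-Aa, Cd74, and H2-Eb1, numbered 13 and 9 in WT and 0 with IACS-70654, and their part in this fall was not tested. Within classes H2-Ab1 rose in multipotent progenitor-like, neutrophil, monocyte, and erythroid cells, whereas the loading factor gene H2-DMa fell in the same 4 classes.

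Counts in this paragraph are over all cells, where 5.12% of all genes rose and 5.83% fell, unless classes are named. Among 25 genes of the drug targets and related epigenetic enzymes, Hdac9 rose and Hdac7 fell (median 0.01). Growth factor receptor genes had 2 of 18 up and 3 down (median 0.11), with Csf2rb, the shared receptor chain of interleukin 3, up and Epor down. Immediate early genes had 2 of 23 up and 6 down (median -0.11), with Egr1 at 83.2 and 90.8 CPM in WT, 64.5 and 64.4 under vehicle, and 59.6 and 57.0 under IACS-70654 (-0.64). The glucose transporter gene Slc2a3 fell (-0.89) and was called lower in 5 of the 7 classes, and Mxd1, an antagonist of Myc, rose (0.62). Mxd1 was also called higher in stem cell-like, multipotent progenitor-like, neutrophil, and erythroid cells. Trafficking receptors had 4 of 21 up and 2 down (median 0.05). In all cells 4 of 6 S100 genes rose and 0 fell (median 0.64), as did 3 of 10 later granule genes (median 0.53). In 12 Myc partner genes (median 0.00) and 17 heat shock and RNA quality genes (-0.07) 1 each was called higher, near the 5.12% of all genes. MHC class I genes had 1 of 22 up and 1 down (0.05), and G1 cyclins and their inhibitors 2 of 15 up and 1 down (-0.03, and 0.04 with total-count scaling). The medians were -0.22 for ribosome biogenesis, -0.13 for S-phase, 0.13 for G2/M, and 0.13 for long noncoding RNA genes.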
